A study of Homo sapiens with 4 samples.

Results

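The genes described here are 32 human oxygen-using dioxygenases and their close relatives, chosen by symbol. They are the JmjC-domain histone demethylases and protein hydroxylases, the TET DNA oxidases, and other 2-oxoglutarate oxygenases that act on proteins, RNA or metabolites. All 32 symbols were found in both deposited tables, among 18899 symbols in the WT table and 57169 in the shRNA table. The RNA came from U87 cells, a long-established glioblastoma line, and was sequenced as 4 libraries, 1 for each group, without replicates. The groups are wild-type (WT) cells in hypoxia (1% O2), WT cells in normoxia, hypoxic cells carrying an ALKBH5 shRNA (shALKBH5), and hypoxic cells carrying a scrambled one (shScr). All were grown in medium with serum. ALKBH5 is itself a dioxygenase of this kind, which removes the m6A methyl mark from RNA.

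These enzymes share a chemistry. Iron in the active site uses molecular oxygen and 2-oxoglutarate to hydroxylate a substrate, and where the hydroxylated group is an N-methyl group, the methyl is lost as formaldehyde. Since oxygen is a substrate, the activity of some members falls when oxygen is scarce; among the histone demethylases, KDM6A is known for a low affinity for oxygen. The hypoxia-inducible factors also bind near some of these genes, and KDM3A and KDM4B are known targets of theirs. RNA levels, as measured here, do not report enzyme activity.

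The deposited values are FPKM, which divide a gene's fragments by its length and by the library's size. A change is given as log2(FPKM + 1) in one library minus that in another of the same table, a scale that understates the change of scarce genes. Genes needed a mean of at least 1 FPKM over the 2 libraries compared, and a gene is called higher or lower from a 2-fold difference on this scale. Each group being 1 library, differences could not be checked against replicates and no p-value is given. For the shRNA table the FPKM values and gene lengths gave back whole reads, 16780154 for shALKBH5 and 17859370 for shScr. Its ratios therefore carry a 95% exact (Clopper-Pearson) counting interval, on the log2 ratio of FPKM without the added constant, which compares those 2 libraries only. For the WT table the read depth is unknown. CDKN2A, a gene known to be deleted in U87, was listed at 0 in all 4 libraries. Of the 8 glioblastoma and glial markers, 4 reached 1 FPKM in each library, with a summed level of 4737 FPKM in WT hypoxia, 3361 in WT normoxia, 726 with shALKBH5 and 661 with shScr. VIM led this list, and the glial markers GFAP, S100B and SOX2 stood at 0.23 FPKM or less. OLIG2 stood at 0.27 FPKM in WT hypoxia and 1.35 FPKM in WT normoxia. CHI3L1 stood at 2.44 FPKM in WT hypoxia and 0.43 FPKM in WT normoxia and was called higher. The 4 genes that reached 1 FPKM thus differed between the WT libraries. CHI3L1 stood at 12.5 FPKM with shALKBH5 and 24.8 FPKM with shScr, a change of -0.94. Of the 8 markers of immune, endothelial, epithelial and neuronal cells, 3 reached 1 FPKM in each WT library and 2 in each shRNA library. Their sums were 264 FPKM in WT hypoxia, 297 in WT normoxia, 3.61 with shALKBH5 and 4.07 with shScr, nearly all of the WT sums being CD68. PTPRC, VWF, EPCAM and RBFOX3 stood at 0.28 FPKM or less in all 4 libraries. PECAM1 was called higher in hypoxia, at 2.50 FPKM in WT hypoxia and 0.69 FPKM in WT normoxia. SNAP25 stood at 6.08 FPKM in WT hypoxia and 3.77 FPKM in WT normoxia. The epithelial marker KRT8 stood at 0.87 FPKM in WT hypoxia and 1.69 FPKM in WT normoxia. The part of these markers, and of the difference between tables, in the results was not tested. In bulk RNA a change in the mix of cells and a change in RNA per cell cannot be told apart.

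The levels of the members spanned a wide range. ASPH, the hydroxylase of EGF-like domains in the endoplasmic reticulum, was the highest of the 32 in all 4 libraries. It stood at 420.0 FPKM in WT hypoxia, 150 FPKM in WT normoxia, 65.0 FPKM with shALKBH5 and 52.3 FPKM with shScr. KDM5C, KDM2A and JMJD6 were among the 5 highest in each library. TET1 was the lowest in WT hypoxia and in both shRNA libraries, at 0.32, 0.24 and 0.07 FPKM for WT hypoxia, shALKBH5 and shScr. In WT normoxia the lowest was HR, listed at 0. The tables were normalised separately, with gene lengths for the WT values that the sources used here leave out, so levels are set side by side across tables only to show their order.

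**Figure D1:**
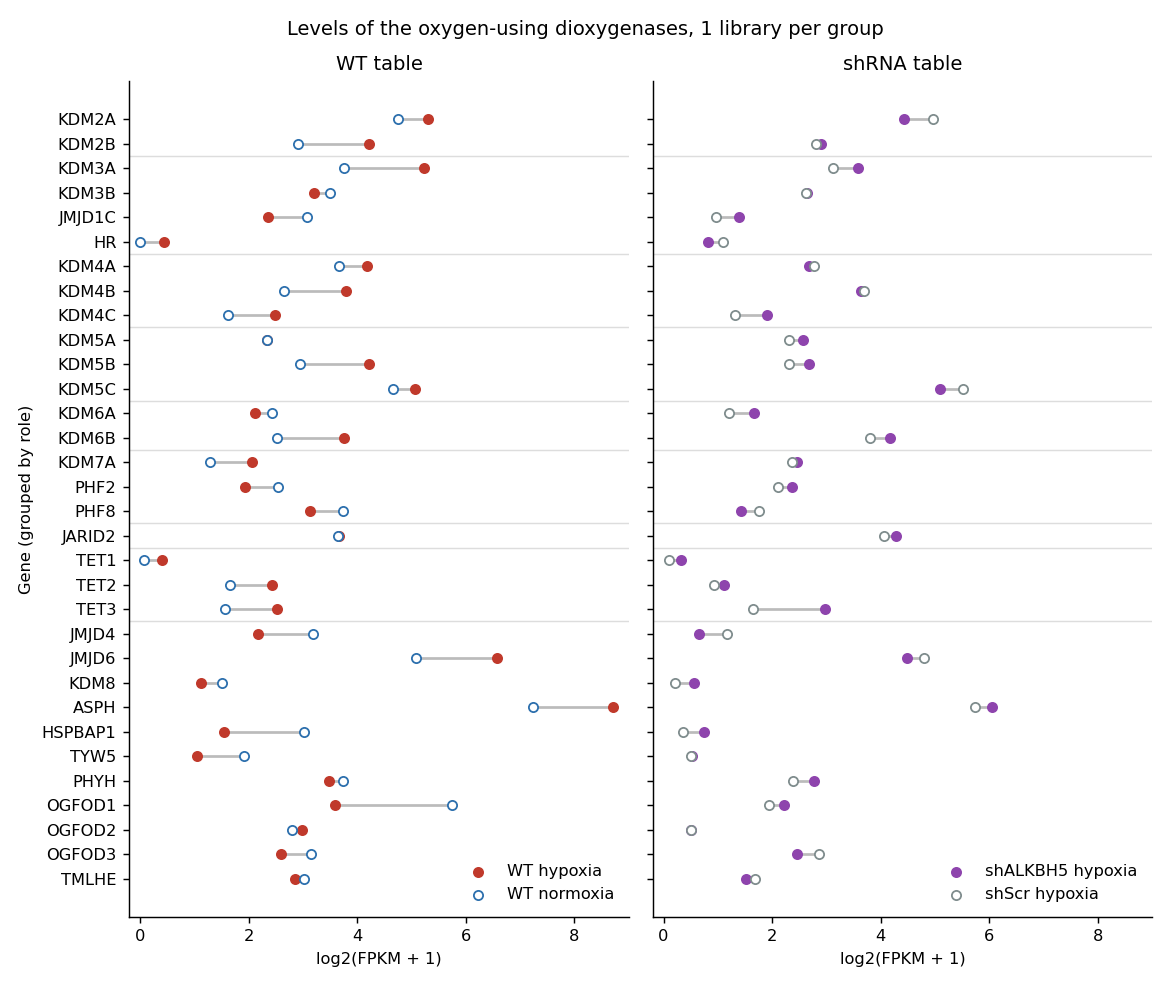
Level of each of the 32 members as log2(FPKM + 1) on the horizontal axis, 1 point per library, with WT hypoxia (filled) and WT normoxia (open) on the left, and shALKBH5 (filled) and shScr (open) on the right. Lines between rows separate roles, and ASPH lies farthest right in each library.

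The first comparison set WT hypoxia against WT normoxia. Among the 30 members that passed the filter, 7 were higher in hypoxia by the 2-fold rule, namely JMJD6, ASPH, KDM3A, KDM2B, KDM5B, KDM6B and KDM4B. Another 3 were at least 2-fold lower, namely OGFOD1, HSPBAP1 and JMJD4. Over all 11050 genes past the filter, 7.41% were called higher and 14.7% lower, so 23.3% of members stood higher beside 7.41% of all genes, and 10.0% lower beside 14.7%. The median change was 0.10 for the members and -0.35 for all genes. Centred, that is with the median gene's change subtracted, 11 members were higher, where 11.9% of all genes were, and 2 lower, where 5.73% were. KDM4C, KDM7A, TET2 and TET3 then joined the higher genes, and JMJD4 left the lower ones. These 4 also had plain FPKM ratios above 2, which the added constant brought under the rule.

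**Figure D2:**
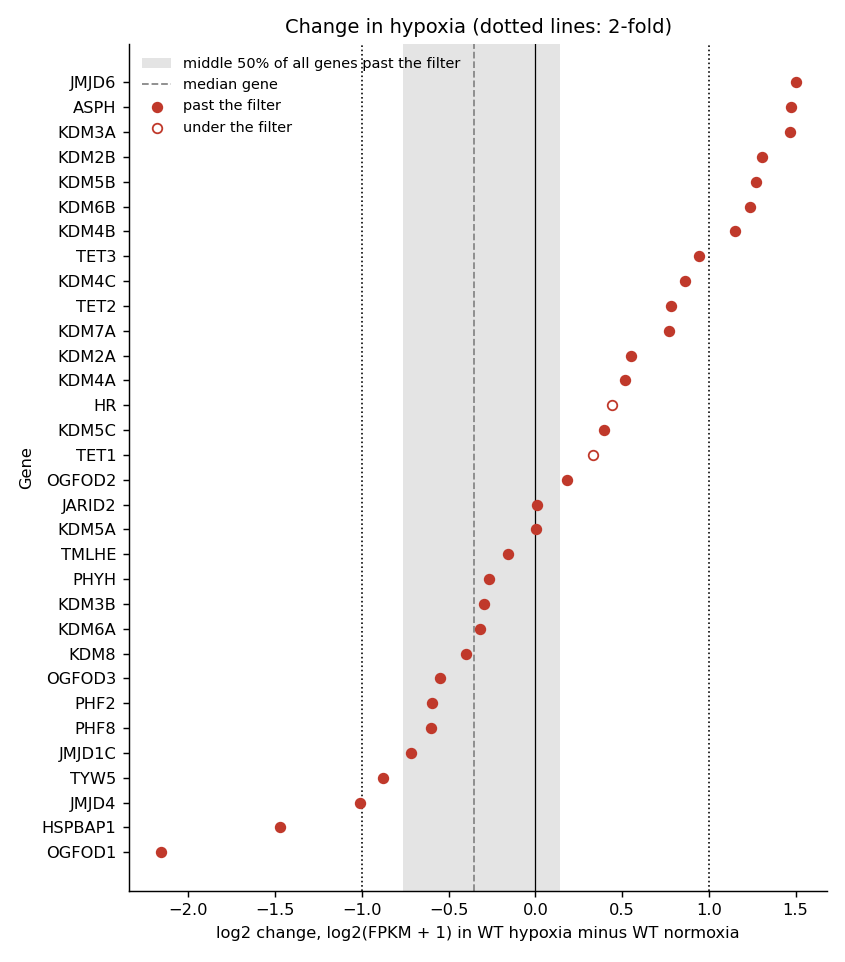
Difference of log2(FPKM + 1) for each member, WT hypoxia minus WT normoxia, ordered from highest to lowest, with dotted lines at 2-fold. The shaded band holds the middle 50% of all genes past the filter, the dashed line is the median gene at -0.35, and 7 members lie right of the upper dotted line and 3 left of the lower one.

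KDM3A, which removes mono- and dimethylation from H3K9, stood at 36.5 FPKM in WT hypoxia and 12.6 FPKM in WT normoxia, a change of 1.47. The level was higher in the hypoxic library, and its paralogs were not. KDM3B stood at 8.20 FPKM in WT hypoxia and 10.3 FPKM in WT normoxia, a change of -0.29 that became 0.06 when centred. JMJD1C, the third of this family, stood at 4.14 FPKM in WT hypoxia and 7.46 FPKM in WT normoxia. Its change of -0.72 was -0.37 when centred. KDM3A thus held 74.7% of the summed FPKM of the 3 paralogs in WT hypoxia and 41.5% in WT normoxia, a share that does not depend on library scaling. HR, a corepressor best known from hair follicles, stood at 0.36 FPKM in WT hypoxia and was listed at 0 in WT normoxia, under the filter. In the KDM4 family, which acts on trimethylated H3K9 and H3K36, KDM4B stood at 12.9 FPKM in WT hypoxia and 5.25 FPKM in WT normoxia, a change of 1.15. KDM4A stood at 17.2 and KDM4C at 4.62 FPKM in WT hypoxia, against 11.7 and 2.09 FPKM in WT normoxia. Their changes were 0.52 and 0.86, so all 3 KDM4 genes lay above 0 and 1 passed the 2-fold rule. KDM4A shares 48.5% of its exonic bases with other annotated genes, none of which reached a mean of 1 FPKM in the shRNA libraries. Its overlap leaves the source of its reads uncertain.

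KDM3A (GRCh38 chromosome 2, 86440647 to 86492716) and KDM4B (chromosome 19, 4969113 to 5153595) are shown with the 250 bases before a RefSeq start in GRCh38.p14, because both are known targets of the hypoxia-inducible factors. These factors bind the letters ACGTG or GCGTG. The windows are chr2:86441121-86441370 on the plus strand and chr19:4968863-4969112 on the plus strand. Capitals mark these letters on either strand, so that CACGTG counts ACGTG on both strands and the 2 hits overlap.
KDM3A: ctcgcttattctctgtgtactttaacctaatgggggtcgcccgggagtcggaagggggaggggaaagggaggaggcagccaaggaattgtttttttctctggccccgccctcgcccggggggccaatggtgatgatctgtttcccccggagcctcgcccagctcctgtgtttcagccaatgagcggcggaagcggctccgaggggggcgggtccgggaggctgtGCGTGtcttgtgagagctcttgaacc
KDM4B: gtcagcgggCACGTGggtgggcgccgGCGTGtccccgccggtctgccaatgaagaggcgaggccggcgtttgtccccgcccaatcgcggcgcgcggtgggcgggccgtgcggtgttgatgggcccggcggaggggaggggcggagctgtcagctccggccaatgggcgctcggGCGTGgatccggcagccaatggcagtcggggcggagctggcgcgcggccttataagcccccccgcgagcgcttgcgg
The KDM3A stretch held GCGTG once, close to the end that adjoins the start site, and this stretch lies inside the annotated gene interval. KDM3A has 2 RefSeq windows and OGFOD1 has 3, of which the first is printed. The KDM4B stretch held GCGTG at 2 places and the palindrome CACGTG once.

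Such letters are common. RefSeq windows, from 250 bases before to 50 after a start, were listed for 29 of the 32 members. At least 1 window held ACGTG or GCGTG in 24 of these 29 (82.8%), that is in 5 of 5 members called higher in hypoxia, 3 of 3 called lower, 15 of 20 past the filter and called neither, and in TET1, the 1 member with a window that was under the filter. Over all 27305 genes with a window the share was 52.4%, and for ACGTG alone it was 24.9%, where 2 of the 5 higher and 2 of the 3 lower members held it. A share by gene rises with the number of windows per gene, which differed. The 29 members had 47 windows and the 27305 genes had 35116. The 5 higher members had 10 windows, the 3 lower had 5 and the 20 called neither had 29. Counted by window, 70.2% of member windows and 48.4% of all windows held either motif. For ACGTG alone these were 25.5% and 21.4%. No window was listed for JMJD6, ASPH or HR.

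The demethylases of H3K36, KDM2A and KDM2B, bind CpG islands through a zinc finger. KDM2B stood at 17.5 FPKM in WT hypoxia and 6.48 FPKM in WT normoxia, a change of 1.30. KDM2A stood at 38.6 FPKM in WT hypoxia and 26.03 FPKM in WT normoxia, a change of 0.55. KDM2A remained the more abundant, and KDM2B held 31.2% of their sum in WT hypoxia and 19.9% in WT normoxia. Among the H3K4 demethylases, KDM5B stood at 17.6 FPKM in WT hypoxia and 6.72 FPKM in WT normoxia, a change of 1.27. KDM5C had a change of 0.39, with 32.4 FPKM in WT hypoxia and 24.4 FPKM in WT normoxia. KDM5A was at 4.08 FPKM in WT hypoxia and 4.07 FPKM in WT normoxia, a change of 0.00 that was 0.35 when centred. In TPM, which scales each library's values to the same total, it was -0.09. KDM5B was 4.32 times as abundant as KDM5A in WT hypoxia and 1.65 times in WT normoxia.

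The H3K27 demethylases split in the same manner. KDM6B, an inducible enzyme also known as JMJD3, stood at 12.6 FPKM in WT hypoxia and 4.74 FPKM in WT normoxia, a change of 1.24. KDM6A, also known as UTX, stood at 3.34 FPKM in WT hypoxia and 4.42 FPKM in WT normoxia, a change of -0.32 that became 0.03 when centred. KDM6B held 78.98% of their sum in WT hypoxia and 51.7% in WT normoxia. The PHD-finger demethylases went apart as well. KDM7A stood at 3.18 FPKM in WT hypoxia and 1.45 FPKM in WT normoxia, a change of 0.77. The changes of PHF2 and PHF8 were both -0.60, so these lay lower in the hypoxic library. When centred the changes were 1.12 for KDM7A and -0.25 for both PHF2 and PHF8. PHF8 stood at 7.75 FPKM in WT hypoxia and 12.3 FPKM in WT normoxia, and PHF2 at 2.84 FPKM in WT hypoxia and 4.81 FPKM in WT normoxia. JARID2, a cofactor of Polycomb repressive complex 2 that lacks demethylase activity, was at 11.7 FPKM in WT hypoxia and 11.6 FPKM in WT normoxia. Its change of 0.01 was -0.09 in TPM.

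**Figure D3:**
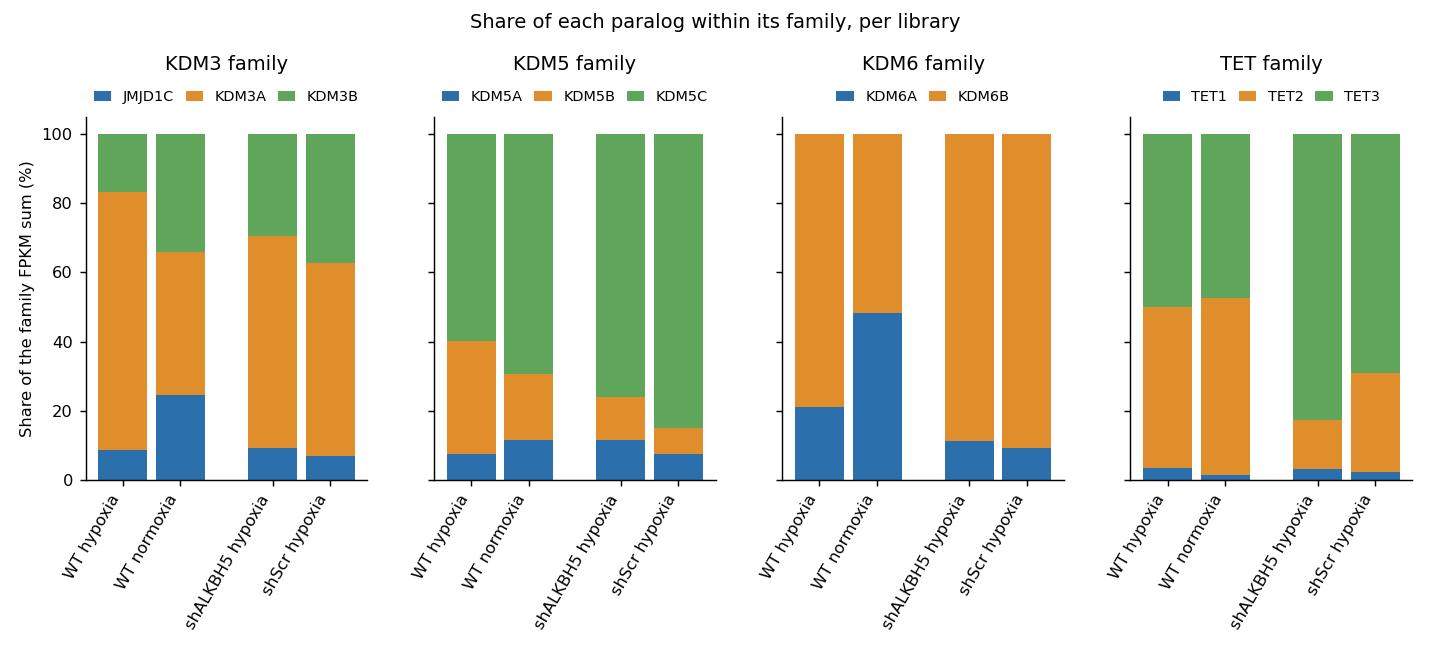
Share of each paralog in the summed FPKM of its family (vertical axis, %), for the KDM3, KDM5, KDM6 and TET families, with 1 bar per library (WT hypoxia, WT normoxia, shALKBH5 and shScr). KDM3A takes 74.7% in WT hypoxia against 41.5% in WT normoxia, KDM6B 78.98% against 51.7%, and TET3 82.8% with shALKBH5 against 69.0% with shScr.

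The TET enzymes oxidise 5-methylcytosine, the first step of active DNA demethylation. TET2 stood at 4.39 FPKM in WT hypoxia and 2.14 FPKM in WT normoxia, a change of 0.78. TET3 stood at 4.72 FPKM in WT hypoxia and 1.98 FPKM in WT normoxia, a change of 0.94. TET1 was at 0.32 FPKM in WT hypoxia and 0.05 FPKM in WT normoxia, under the filter. All 3 were higher in hypoxia by plain ratio, and none passed the 2-fold rule on the scale used, while TET2 and TET3 passed when centred, at 1.13 and 1.29.

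The 11 oxygenases of proteins, RNA and metabolites held the lowest changes of the 32 and, on the scale used, the highest. By plain FPKM ratio KDM3A lay just above JMJD6, at 2.90 and 2.89. JMJD6 lies on chromosome 17 of GRCh38, 76712832 to 76726799, and encodes a lysyl hydroxylase of splicing proteins. It stood at 94.3 FPKM in WT hypoxia and 32.7 FPKM in WT normoxia, a change of 1.501. ASPH had a change of 1.48. OGFOD1, the prolyl hydroxylase of the ribosomal protein RPS23 (chromosome 16, 56451490 to 56479100), stood at 10.99 FPKM in WT hypoxia and 52.6 FPKM in WT normoxia, a change of -2.16. It was the twelfth most abundant member in WT hypoxia and the second in WT normoxia. HSPBAP1, which binds the small heat shock protein HSPB1 (chromosome 3, 122740003 to 122793824), stood at 1.94 FPKM in WT hypoxia and 7.14 FPKM in WT normoxia, a change of -1.47. JMJD4, a hydroxylase of the translation termination factor eRF1, stood at 3.51 FPKM in WT hypoxia and 8.09 FPKM in WT normoxia. Its change of -1.01 lay at the edge of the rule and was -0.66 when centred. JMJD4 shares 53.8% of its exonic bases with SNAP47 on the opposite strand, and whether counting used strand is not stated, so the source of its reads is uncertain.

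Sequences before a RefSeq start of OGFOD1 and HSPBAP1 are shown because these members had the lowest changes in hypoxia, and their windows hold the same letters. They are chr16:56451274-56451523 on the plus strand and chr3:122793832-122794081 on the minus strand of GRCh38.p14, with ACGTG and GCGTG on either strand in capitals.
OGFOD1: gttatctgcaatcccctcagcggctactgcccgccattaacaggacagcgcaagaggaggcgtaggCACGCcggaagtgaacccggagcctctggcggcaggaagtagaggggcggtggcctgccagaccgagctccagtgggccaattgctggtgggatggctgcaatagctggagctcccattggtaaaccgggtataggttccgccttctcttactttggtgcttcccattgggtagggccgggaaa
HSPBAP1: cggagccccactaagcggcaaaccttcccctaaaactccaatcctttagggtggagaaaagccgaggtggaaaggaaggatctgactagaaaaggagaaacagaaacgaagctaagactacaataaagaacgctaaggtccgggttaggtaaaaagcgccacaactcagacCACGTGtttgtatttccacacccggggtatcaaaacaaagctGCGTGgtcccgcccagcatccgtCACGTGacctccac
The HSPBAP1 stretch held CACGTG at 2 places and GCGTG once. The OGFOD1 stretch held GCGTG once, on the opposite strand, where it reads CACGC.

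The other oxygenases were not called in hypoxia on the scale used. TYW5, which hydroxylates the wybutosine base of phenylalanine tRNA, stood at 1.06 FPKM in WT hypoxia and 2.79 FPKM in WT normoxia, and its change was -0.88. By plain ratio it lay at 0.380 of the normoxic level, past 2-fold, and it also passed the rule in TPM, at -1.15, and with a constant of 0.1. KDM8, an arginyl hydroxylase, stood at 1.17 FPKM in WT hypoxia and 1.86 FPKM in WT normoxia, and OGFOD3 at 5.04 FPKM in WT hypoxia and 7.84 FPKM in WT normoxia. Their changes were -0.40 and -0.55. PHYH, the peroxisomal phytanoyl-CoA hydroxylase, had a change of -0.27, and TMLHE, which begins carnitine synthesis, had -0.16, and both turned positive when centred, at 0.08 and 0.20. OGFOD2, which shares 78.3% of its exonic bases with other annotated genes, had a change of 0.18. By role, 13 of the 18 measured demethylases and TET genes had a change above 0, with 5 called higher and 0 lower. Of the 11 other oxygenases, 3 had a change above 0, with 2 called higher and 3 lower. Over all genes past the filter, 30.8% had a change above 0, 7.41% were called higher and 14.7% lower.

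Histone methyltransferase genes, listed with subunits of their complexes, were set beside the demethylases. Of 33 listed histone methyltransferase and Polycomb genes, 32 passed the filter in the WT table. Among these, 0 were called higher, 3 were lower, and 29 of 32 had a change below 0, with a median of -0.64. Over all genes 69.1% had a change below 0 and 14.7% were called lower. Centred on the median gene, 0 of the 32 were called in either direction, the median was -0.29 and 7 of 32 lay above 0, against 15 of the 18 demethylases and TET genes, whose centred median was 1.01. The largest changes per list were -1.20 for SETD1B and -1.01 for KMT2D, both H3K4 methyltransferases, -0.97 for SUV39H1 and -0.96 for SUV39H2, which methylate H3K9, -1.23 for EZH2 and -0.90 for PHF19 of Polycomb repressive complex 2, and -0.92 for NSD2 and -0.80 for SETD2, which methylate H3K36. The H3K27 demethylases KDM6A and KDM6B summed to 15.9 FPKM in WT hypoxia and 9.16 FPKM in WT normoxia. The H3K27 methyltransferases EZH1 and EZH2 summed to 17.4 FPKM in WT hypoxia and 41.0 FPKM in WT normoxia.

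DNA methylation genes included the maintenance methyltransferase DNMT1 (-1.71) and its partner UHRF1 (-1.65), which with CXXC5 (1.14) were the 3 of 6 measured genes past the rule. The FAD-dependent demethylases, which use oxygen through another chemistry, had changes of -1.64 for KDM1B and -0.27 for KDM1A, and KDM1A was at 0.08 when centred. Among 5 measured dioxygenases outside the 32, RIOX2 (-2.12) and RIOX1 (-1.16), hydroxylases of ribosomal proteins like OGFOD1, were lower and 0 higher. When centred, ASPHD2 (1.09) was higher and RIOX2 lower.

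**Figure D4:**
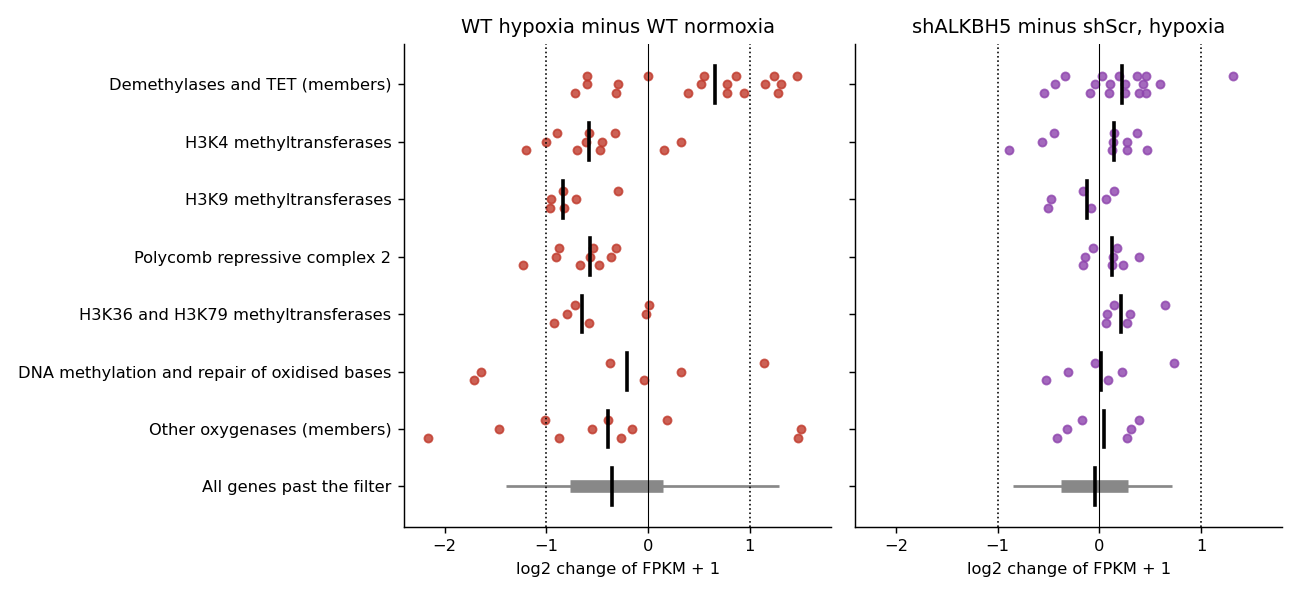
Change as a difference of log2(FPKM + 1) for members and for the listed histone methyltransferase, Polycomb and DNA methylation and repair genes. WT hypoxia minus WT normoxia is on the left and shALKBH5 minus shScr on the right. Points are genes past the filter, short black bars are medians, dotted lines mark 2-fold, and the bottom row shows the middle 50% (thick) and 90% (thin) of all genes. The demethylases and TET genes have a median of 0.66 on the left, while the 4 histone methyltransferase lists have medians from -0.83 to -0.57.

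The second comparison set the ALKBH5 shRNA against the scrambled one in hypoxia. ALKBH5 itself stood at 113 FPKM with shALKBH5 and 186 FPKM with shScr, a change of -0.71 that was under the 2-fold rule. This change was -0.68 when centred and -0.46 in TPM, from 5711 reads with shALKBH5 and 8814 with shScr. In the WT libraries ALKBH5 stood at 83.5 FPKM in hypoxia and 39.6 FPKM in normoxia. Of the 25 members past the filter, 1 was at least 2-fold higher with shALKBH5 and 0 were lower. Over all 10925 genes past the filter, 1.76% were called higher and 3% lower, so 1 of 25 is near the background. The median change was 0.22 for the members and -0.04 for all genes. The counting interval lay above 0 for 15 members, below 0 for 5 and held 0 for 5. Over all genes past the filter it lay above 0 for 31.7% and below 0 for 38.3%. It leaves out differences between cultures and in how the libraries were scaled.

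TET3 was the member past the rule (GRCh38 chromosome 2, 73986404 to 74108176). It stood at 6.83 FPKM with shALKBH5 and 2.14 FPKM with shScr, from 1328 reads with shALKBH5 and 390 with shScr. Its change was 1.32, and 1.36 when centred, 1.42 with total reads as the divisor and 1.78 in TPM. The counting interval of its ratio was 1.51 to 1.84 on the log2 scale. TET3 was the ninth most abundant member with shALKBH5 and the twenty-first with shScr. Its relatives were scarce in these libraries. TET2 stood at 1.17 FPKM with shALKBH5 and 0.89 FPKM with shScr, a change of 0.20 with an interval of the ratio from 0.13 to 0.65. TET1 had 36 reads with shALKBH5 and 9 with shScr, under the filter, with an interval from 0.83 to 3.15. Of the 3 TET genes, TET3 alone passed both the filter and the rule with shALKBH5. By plain FPKM ratio TET1, on its few reads, stood at 3.75 and TET3 at 3.19. TET3 held 82.8% of the TET sum with shALKBH5 and 69.0% with shScr.

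The 250 bases before the first listed RefSeq start of TET3 are shown as the window of the 1 member called with shALKBH5. They are chr2:73984660-73984909 on the plus strand of GRCh38.p14, with ACGTG and GCGTG on either strand in capitals.
TET3: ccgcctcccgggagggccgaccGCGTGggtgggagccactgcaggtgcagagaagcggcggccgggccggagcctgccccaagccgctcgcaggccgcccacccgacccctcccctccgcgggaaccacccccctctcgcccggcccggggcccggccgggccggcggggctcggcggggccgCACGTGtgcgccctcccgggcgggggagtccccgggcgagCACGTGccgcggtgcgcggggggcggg
This stretch held CACGTG at 2 places and GCGTG once. It ends before the annotated gene interval begins, at 73986404, and so does not adjoin it. TET3 has 1 further RefSeq window, which is not printed.

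**Figure D5:**
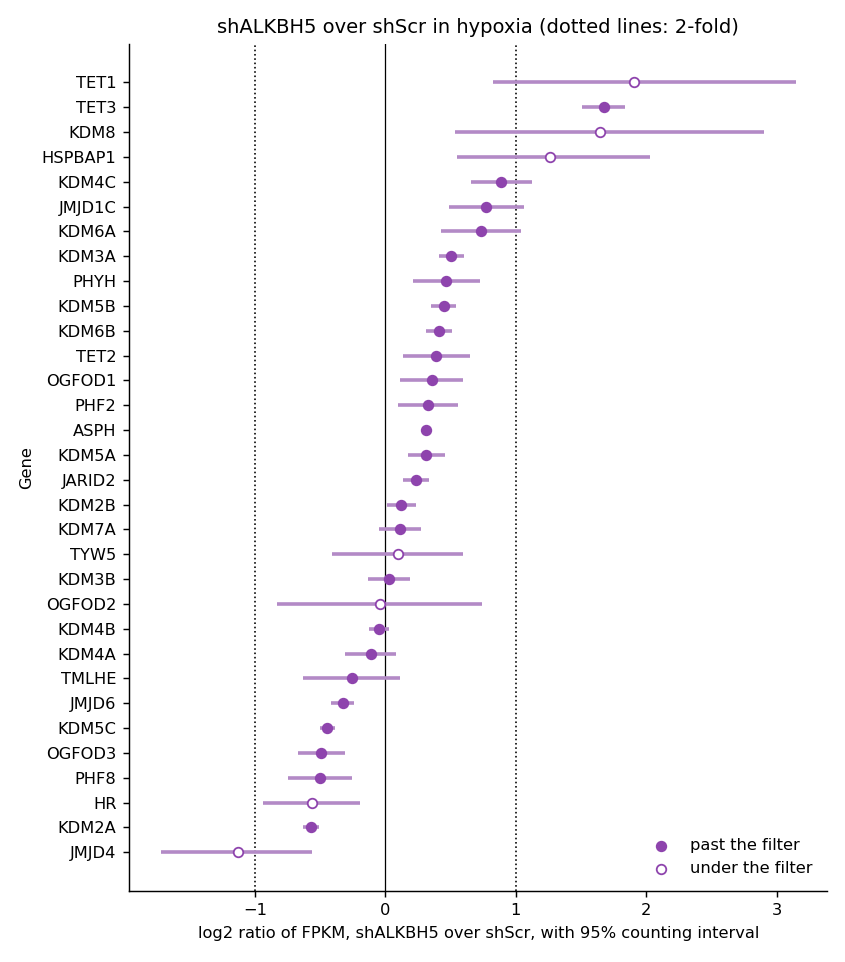
Ratio of FPKM with shALKBH5 over shScr on a log2 axis for each member, with 95% counting intervals as lines, filled points past the filter and open points under it. TET3 lies past the upper dotted 2-fold line with an interval of 1.51 to 1.84, and the other members past the filter lie within 2-fold.

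The other histone demethylases stayed within 2-fold. KDM4C stood at 2.73 FPKM with shALKBH5 and 1.47 FPKM with shScr, a change of 0.59, from 447 reads with shALKBH5 and 226 with shScr. KDM3A stood at 10.9 FPKM with shALKBH5 and 7.68 FPKM with shScr, a change of 0.46 with an interval of the ratio from 0.41 to 0.60. KDM6A and JMJD1C, scarce genes in these libraries, had changes of 0.46 and 0.43. KDM6A stood at 2.17 FPKM with shALKBH5 and 1.31 FPKM with shScr, and JMJD1C at 1.63 FPKM with shALKBH5 and 0.95 FPKM with shScr. KDM6B stood at 17.1 FPKM with shALKBH5 and 12.8 FPKM with shScr, and KDM5B at 5.37 FPKM with shALKBH5 and 3.94 FPKM with shScr. Their changes were 0.39 and 0.37, so KDM3A, KDM5B and KDM6B, all called higher in WT hypoxia, also lay above 0 here without reaching the rule. Of the other members called higher in WT hypoxia, ASPH (0.31) and KDM2B (0.11) lay above 0 here. JMJD6 (-0.31) and KDM4B (-0.04) lay below 0. Smaller positive changes were seen for KDM5A (0.26), PHF2 (0.26), JARID2 (0.22) and KDM2B (0.11).

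On the other side, KDM2A stood at 20.4 FPKM with shALKBH5 and 30.2 FPKM with shScr, the lowest change of the members past the filter at -0.55. Its interval of the ratio was -0.63 to -0.50, from 3352 reads with shALKBH5 and 4662 with shScr. KDM5C stood at 32.9 FPKM with shALKBH5 and 44.7 FPKM with shScr, a change of -0.43. Both stayed within 2-fold, and in TPM their changes were -0.31 for KDM2A and -0.18 for KDM5C. PHF8 and OGFOD3 had changes of -0.33 and -0.41, and JMJD6 had -0.31, with 21.2 FPKM with shALKBH5 and 26.6 FPKM with shScr. Among members past the filter, these 5 had intervals below 0, and their changes remained below 0 when centred, with total reads and in TPM. The changes of KDM4A (-0.10) and KDM4B (-0.04) turned to 0.14 and 0.21 in TPM and to 0.06 and 0.12 with total reads. TMLHE (-0.17) turned to 0.00 in TPM. KDM3B (0.02) and KDM7A (0.09) also had intervals that held 0.

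Among the remaining oxygenases, PHYH (0.39), ASPH (0.31) and OGFOD1 (0.27) had positive changes. ASPH, with 20662 reads with shALKBH5 and 15573 with shScr, had the narrowest interval, 0.29 to 0.35. There were 7 members under the filter in these libraries. HSPBAP1 had 59 reads with shALKBH5 and 23 with shScr, with an interval of 0.55 to 2.03. KDM8 had 30 reads with shALKBH5 and 9 with shScr, with an interval of 0.53 to 2.90. JMJD4 had 39 reads with shALKBH5 and 80 with shScr, with an interval of -1.72 to -0.56. HR had 107 reads with shALKBH5 and 148 with shScr, with an interval of -0.93 to -0.19. The intervals of TYW5 and OGFOD2 held 0, and TET1 is given above.

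The 7 members higher in WT hypoxia all passed the filter in the shRNA table. Their shALKBH5 changes lay between -0.31 for JMJD6 and 0.46 for KDM3A. Of the 3 lower in hypoxia, OGFOD1 passed the filter in the shRNA table and had a change of 0.27. Over the 25 members past both filters, 14 had the same sign in both comparisons (56.0%), and over all 9262 such genes 47.4% did. When centred these were 64.0% and 45.6%. Of the 30 measured histone methyltransferase and Polycomb genes, 0 were called in either direction with shALKBH5, with a median of 0.13. The largest changes per list were -0.89 for SETD1A, -0.50 for SUV39H1, 0.39 for EZH1 and 0.64 for DOT1L. In the DNA list TDG, the glycosylase that removes oxidised cytosines made by TET enzymes, had the largest change, at 0.74. It was 0.78 when centred and 1.18 in TPM. In TPM the median of all genes was 0.23, and 8.39% of them were called higher. The 4 measured dioxygenases outside the 32 all had changes below 0, with a median of -0.67. Of these, ASPHD2 was called lower at -1.71, with 1.84 FPKM with shALKBH5 and 8.32 FPKM with shScr. RIOX1 stood at -0.92, and the FAD-dependent KDM1A at -0.78.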

How the data were processed

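RNA-seq values of 4 U87 libraries were read from 2 gene tables. The authors deposited FPKM in both, per the file headers and table names, and the tables were handled separately. The submitters' processing notes name hg19, but the coordinates of all 32 members in the shRNA table equal those of GENCODE release 29 (GRCh38), and are given as such. Aligner, counting tool and strand setting were not given in the sources used here. Of 18964 WT rows, 65 with a date or number as symbol were left out. Where symbols recurred among the 58735 shRNA rows, the highest mean was used, which dropped 1566. Multiplied by gene length, all shRNA FPKM values (100%) gave whole reads to within 0.01 read. The deposited divisor was 94.5% of the recovered reads in shALKBH5 and 83.2% in shScr, so the scale between these libraries depends on it. Intervals cover counting error only.

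Changes used a constant of 1 FPKM, a minimum mean of 1 FPKM and a 2-fold rule. No test was run, since each group has 1 library. The members, lists and rules were chosen with earlier results of these data known. All 32 members are named, with ALKBH5 and, from each other list, up to 2 genes per comparison with the largest absolute change past the filter, where a gene named by one comparison may be given in both. CA9 and NDRG1, set as a check of the hypoxia label, had log2 changes of 7.15 and 6.24 in WT hypoxia over normoxia. Alternatives were a constant of 0.1, no filter, a minimum of 5 FPKM, centring on the median gene, TPM, summed rows, 1.5-fold and 3-fold rules, and, for the shRNA table, total reads and protein-coding genes. Read recovery and the 2-fold rule were tried on simulated data, and the other steps were not. Promoter windows and their sequences are from RefSeq (GRCh38.p14). Exon overlaps are from GENCODE. Scripts ran on numpy 2.4.6, scipy 1.17.1, pandas 2.3.3 and matplotlib 3.10.9 under Python 3.11.15.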

Additional observations from a re-analysis of the deposited data

How the results depend on the processing

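In hypoxia, the count of members at least 2-fold higher was 7 without a filter, at 5 FPKM, in TPM and with summed rows. It was 11 with a constant of 0.1, 11 when centred, 11 at 1.5-fold and 0 at 3-fold. The count of lower members was 7 at 1.5-fold and 1 at 3-fold, and between 2 and 4 otherwise. The members' median was 0.11 with a constant of 0.1, 0.26 without a filter, 0.29 at 5 FPKM, 0.45 when centred and 0.0065 in TPM. With shALKBH5, the count of higher members was 0 at 5 FPKM, where TET3 was under the filter, 2 at 1.5-fold and 0 at 3-fold, and 1 under the others run, while the count of lower members was 0 under all of them. The median there was 0.31 with a constant of 0.1, 0.21 without a filter, 0.023 at 5 FPKM, 0.26 when centred, 0.39 with total reads and 0.48 in TPM. No called member changed sign under an alternative. No paired analysis was possible because each group has 1 library, and no replicate could be left out. Read depth is unknown for the WT libraries, so no interval can be given for the hypoxia comparison.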

Other observations

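OGFOD2 stood at 6.86 FPKM in WT hypoxia and 5.92 FPKM in WT normoxia, and at 0.41 FPKM with shALKBH5 and 0.42 FPKM with shScr. Of its exonic bases, 78.3% are shared with other annotated genes. CD68, noticed among the markers of other cells after its values were seen, stood at 255 FPKM in WT hypoxia and 290 FPKM in WT normoxia, but was listed at 0 with shALKBH5 and at 0.15 FPKM with shScr. KDM4A, JMJD4 and KDM8 also share over 10% of their exonic bases with other annotated genes. Of these, JMJD4 alone does so with a gene at a mean of at least 1 FPKM in the shRNA libraries. Whether the tables assigned shared reads differently was not tested.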
